A study of Mus musculus with 18 samples.

Results

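The 10 spermatogonial stem cell genes described here, Zbtb16, Gfra1, Ret, Id4, Etv5, Lhx1, Egr4, Eomes, Foxo1 and Sall4, were taken by name as genes that serve stem cell maintenance in the testis after birth, out of 21887 coding genes. They were followed in prospermatogonia, the male germ cells of the fetal mouse testis that have stopped dividing and later give rise to the stem cells. The mark measured was trimethylation of lysine 4 of histone H3 (H3K4me3), by CUT&RUN, in which an antibody guides a nuclease that cuts out the chromatin carrying the mark. The tested genotypes were the Tet1 knockout (Tet1-/-, written KO) and homozygotes for the HxD allele (Tet1HxD/HxD, written HxD), an allele named for the catalytic HxD motif of TET1 and known as catalytically inactive. The wild type (Tet1+/+, written WT) was the control of both. All 3 genotypes were sampled at E17.5 as cells positive for the Oct4-GFP reporter, all cells had been frozen before nuclei were taken, and each library came from 4000 nuclei. Each genotype had 3 biological replicates, per the labels, and the 9 H3K4me3 libraries were used. The 9 IgG samples of the series were not used here.

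Stem cell maintenance in the testis depends on GDNF, a ligand from Sertoli and other somatic cells, which binds the co-receptor GFRA1 and signals through the receptor tyrosine kinase RET. In cultured mouse spermatogonia GDNF raises the transcription factor genes Etv5 and Lhx1, while ID4, ZBTB16 (PLZF), SALL4 and FOXO1 act in self-renewal and EOMES marks a subset of undifferentiated cells. H3K4me3 sits at the promoters of transcribed genes and of many CpG-rich genes that are silent, so a peak is not a measure of transcription. TET1 oxidises 5-methylcytosine, and the question read from the design is whether the mark at gene promoters differs when TET1, or its catalytic activity, is missing.

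The annotated promoters that carried a peak in every library are shown first, as the sequence at or near which the mark below was found. They come from RefSeq (GRCm38.p6, 250 bases before to 50 bases after the annotated start) and are printed 5′ to 3′ on the strand of the gene. Of the 10 genes, 7 were matched in that table, with 8 entries. Zbtb16, Ret and Sall4 were not among them. Capitals mark matches, on either strand, to the 6 motifs searched: the GC box GGGCGG, the CCAAT box, the TATA motif TATAAA, the E box motif CACGTG, the ETS motif CCGGAAG and the forkhead motif GTAAACA. Gfra1 lies at chr19:58455349-58455648 on the minus strand, Id4 at chr13:48260866-48261165 on the plus strand, Lhx1 at chr11:84525485-84525784 on the minus strand and Eomes at chr9:118477939-118478238 on the plus strand. Etv5, on the minus strand of chromosome 16, has an inner start at chr16:22438319-22438618 and an outer one at chr16:22439521-22439820. The outer one is added after its values were seen, since its coverage differed among libraries.
Gfra1: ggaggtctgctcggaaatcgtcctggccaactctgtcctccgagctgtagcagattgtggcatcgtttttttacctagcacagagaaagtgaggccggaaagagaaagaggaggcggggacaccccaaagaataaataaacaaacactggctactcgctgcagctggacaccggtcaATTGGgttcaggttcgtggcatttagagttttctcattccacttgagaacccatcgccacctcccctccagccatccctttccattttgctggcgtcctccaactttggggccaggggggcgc
Id4: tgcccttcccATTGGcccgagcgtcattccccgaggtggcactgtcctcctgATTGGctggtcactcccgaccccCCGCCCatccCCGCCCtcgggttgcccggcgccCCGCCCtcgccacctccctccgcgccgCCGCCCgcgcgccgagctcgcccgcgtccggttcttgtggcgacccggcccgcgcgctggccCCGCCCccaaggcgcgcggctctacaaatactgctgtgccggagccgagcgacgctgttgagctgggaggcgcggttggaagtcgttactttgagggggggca
Etv5 inner: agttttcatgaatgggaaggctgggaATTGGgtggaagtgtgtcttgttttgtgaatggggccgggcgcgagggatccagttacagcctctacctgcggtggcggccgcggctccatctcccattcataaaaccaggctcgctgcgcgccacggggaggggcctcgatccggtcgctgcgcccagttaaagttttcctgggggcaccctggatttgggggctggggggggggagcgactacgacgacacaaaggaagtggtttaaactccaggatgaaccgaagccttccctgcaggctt
Etv5 outer: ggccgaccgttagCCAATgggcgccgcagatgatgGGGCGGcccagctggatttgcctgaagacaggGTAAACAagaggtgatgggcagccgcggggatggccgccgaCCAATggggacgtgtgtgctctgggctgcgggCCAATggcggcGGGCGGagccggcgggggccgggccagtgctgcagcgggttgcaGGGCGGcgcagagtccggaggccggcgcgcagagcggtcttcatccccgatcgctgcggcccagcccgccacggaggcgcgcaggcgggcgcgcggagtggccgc
Lhx1: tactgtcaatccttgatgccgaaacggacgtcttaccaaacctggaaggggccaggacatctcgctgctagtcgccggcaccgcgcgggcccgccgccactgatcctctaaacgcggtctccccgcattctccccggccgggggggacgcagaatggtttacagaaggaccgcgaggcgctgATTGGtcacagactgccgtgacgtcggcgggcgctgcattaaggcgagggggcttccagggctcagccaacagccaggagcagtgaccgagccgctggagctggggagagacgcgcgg
Eomes: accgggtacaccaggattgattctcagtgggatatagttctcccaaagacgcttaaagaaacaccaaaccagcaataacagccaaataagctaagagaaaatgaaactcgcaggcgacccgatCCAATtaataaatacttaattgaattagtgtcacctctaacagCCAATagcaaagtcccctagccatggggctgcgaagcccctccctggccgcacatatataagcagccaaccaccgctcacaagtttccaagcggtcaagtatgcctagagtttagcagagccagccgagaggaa

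The annotated promoters differ in CpG content. Id4 holds 39 CpG dinucleotides in its 300 bases, the outer Etv5 start 37, and Lhx1 and Foxo1 31 each. Egr4 holds 30 and the inner Etv5 start 19. Gfra1 holds 12 and Eomes 10, near the median of 13 over 21263 coding gene promoters of the same length. CCAAT was found in 6 of the 7 genes, against 38.2% of all promoters, and GGGCGG in 3 of the 7 (Id4, Etv5 and Foxo1), against 46.2%. GTAAACA was found in the outer Etv5 promoter alone among the 7 genes, against 3.0% of all promoters. None of the 7 held TATAAA (12.6% of all promoters), CACGTG (7.8%) or CCGGAAG (11.6%). Only these exact strings were searched, so other forms of a motif, such as the tatataa in the Eomes promoter, were not counted. A match is a run of letters and not a shown binding site. Promoters of average CpG content (Gfra1 and Eomes) and CpG-rich ones (Id4 and Lhx1) carried a peak in all 9 libraries.

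Peak lists were deposited for each library, and each peak has a position, a length and a fold enrichment given by the authors' peak caller. The lists held 69901 to 80232 peaks in KO, 49624 to 67925 in HxD and 83586 to 128701 in WT, and covered 50.5 to 73.0 Mb in KO, 45.6 to 69.3 Mb in HxD and 76.6 to 108.9 Mb in WT. Read depth is unknown, so whether list length followed depth was not tested. The replicates are described as biological, and all libraries carry 1 batch label. The Tet1 gene itself had 2732 to 4851 bp of peaks in KO, 2580 to 3495 bp in HxD and 2415 to 3315 bp in WT within 5 kb of its marked end. A promoter mark does not read a deletion or a changed codon elsewhere in the gene, so this checks no label. Of 15 prospermatogonial and germ cell genes, 9 carried a peak within 1 kb of the marked end in all 9 libraries, among them Ddx4 and Dazl, 5 in some libraries and 1, Piwil2, in none. Of 10 Sertoli markers 6 carried one in all 9 libraries and 4 in some. Peaks within 5 kb at the Sertoli markers summed to 21864 to 32537 bp in KO, 19762 to 32261 bp in HxD and 31591 to 36188 bp in WT.

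The breadth of a gene is the number of bases covered by peaks within 5 kb of its marked end, the gene end with more peak cover over the 9 libraries. A gene was tested when it had a peak within 1 kb of that end in at least 3 libraries, which 16000 coding genes had. All 10 stem cell genes were among them. Each of the 10 had such a peak in all 9 libraries, a property shared by 81.5% of tested genes. The label of the group says that the genes become active after birth. A peak lay within 1 kb of the marked end of each in every library at E17.5, in all 3 genotypes, although the 300 bases of the annotated promoter were without cover in 1 library each for Etv5 (the outer start), Egr4 and Foxo1. The marked end was the annotated start, here the upstream end of the gene on its strand, in each of the 7 genes whose strand is given. The printed Gfra1 promoter, at chr19:58455349-58455648, lies inside the gene from its marked end at 58455946. For Zbtb16, Ret and Sall4 the table used gives no strand. Cover within 1 kb of the other gene end, summed over the 9 libraries, was 0 bp for Zbtb16, 259 bp for Ret and 281 bp for Sall4.

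**Figure D1:**
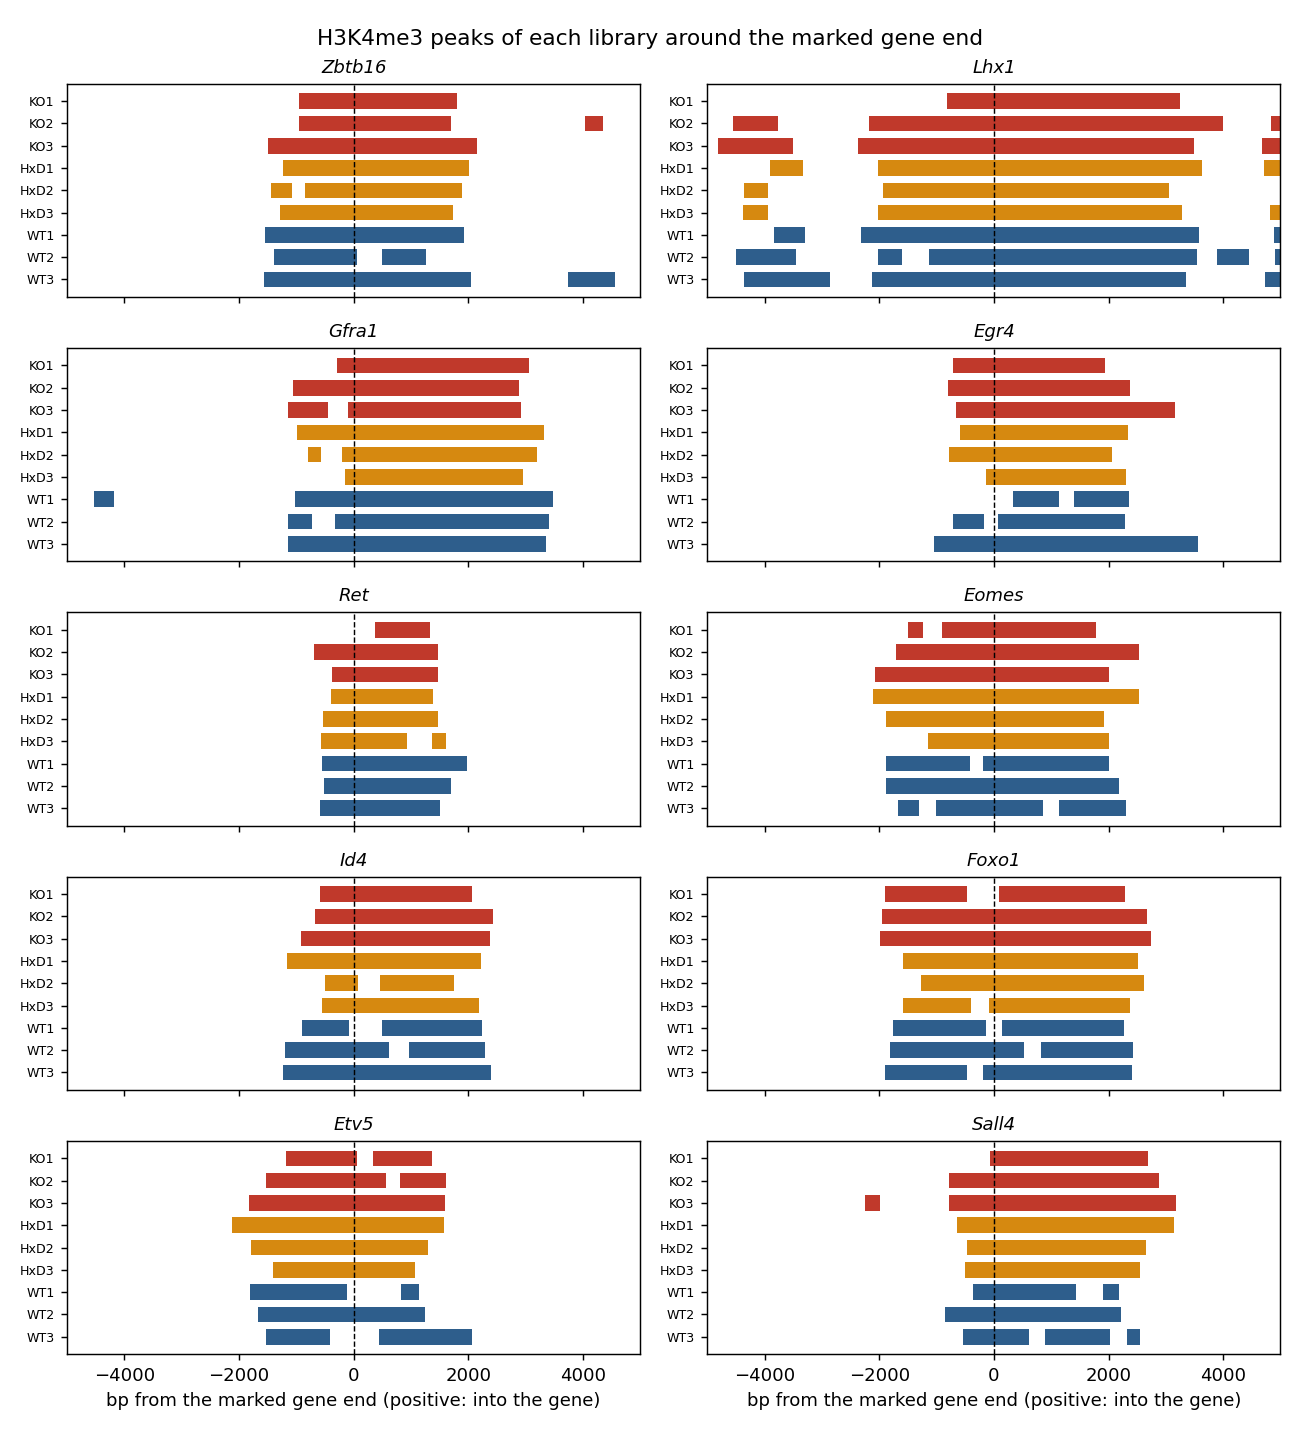
Called H3K4me3 peaks of each library (rows: KO, HxD and WT, 3 replicates each) around the marked end of the 10 genes, on a scale of bp from that end, with positive values running into the gene. Most peaks reach farther into the gene than out of it, and 21 of 30 KO rows, 22 of 30 HxD rows and 10 of 30 WT rows are a single unbroken peak.

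The receptor genes come first. Gfra1 (chr19:58235581-58455946), the GDNF co-receptor, had 3347, 3954 and 3720 bp in KO, 4313, 3653 and 3106 bp in HxD, and 4835, 4166 and 4496 bp in WT. Every KO library lay below every WT library, while 1 HxD library lay within the WT range. The KO mean was 3674 ± 306 bp, the HxD mean 3691 ± 604 bp and the WT mean 4499 ± 335 bp (SD, n = 3 each). The difference was −825 bp for KO minus WT (SE 474, limma, adjusted p = 0.448) and −808 bp for HxD minus WT (SE 474, limma, adjusted p = 0.574), so neither passed the threshold of 0.05. The 95% intervals ran from −1840 to 189 bp and from −1823 to 206 bp. The mark lay mostly inside the gene, with 2888 to 3477 bp on that side in the 9 libraries. The nearer end of the noncoding Gm41876 lies 203 bp from the marked end, and peaks there cannot be told apart from those of Gfra1. For this and the neighbours named below, whether the nearer end is the start was not read.

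Ret (chr6:118151748-118197744), which encodes the signalling receptor, had the narrowest mark of the 10. It had 950, 2153 and 1848 bp in KO, 1793, 2010 and 1751 bp in HxD, and 2537, 2204 and 2092 bp in WT. All 3 HxD libraries lay below all 3 WT libraries, and 2 of 3 KO libraries did. The differences were −627 bp for KO minus WT (SE 348, limma, adjusted p = 0.430) and −426 bp for HxD minus WT (SE 348, limma, adjusted p = 0.707). The first KO library was the low one, with a single peak that began inside the gene and left the marked end uncovered.

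The transcription factor genes follow, with Lhx1 the broadest. Lhx1 (chr11:84517975-84525534), a LIM homeobox gene, had 4063, 7121 and 7519 bp in KO, 6515, 5400 and 5931 bp in HxD, and 6556, 6769 and 7238 bp in WT. All HxD libraries lay below all WT libraries, and the KO libraries split into 1 low and 2 high. The differences were −620 bp for KO minus WT (SE 907, limma, adjusted p = 0.793) and −906 bp for HxD minus WT (SE 907, limma, adjusted p = 0.772). The KO difference turned to 466 bp without the first KO library. Lhx1 ranked between percentiles 97.9 and 99.9 of tested genes in breadth in KO and between 99.6 and 99.9 in HxD and WT. Its window is shared with the nearer end of the antisense gene Lhx1os, 126 bp away.

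Etv5 (chr16:22381313-22439570), an ETS factor, had 2262, 2903 and 3424 bp in KO, 3708, 3101 and 2487 bp in HxD, and 2007, 2914 and 2738 bp in WT. The groups overlapped, with differences of 310 bp for KO minus WT (limma, adjusted p = 0.788) and 546 bp for HxD minus WT (limma, adjusted p = 0.707). The outer promoter printed above was covered over all 300 bases in every KO and HxD library, and over 139, 300 and 0 bases in the WT libraries. The inner one had some cover in all 9. Etv5 was also the gene whose mark most often lay outward of the marked end, more so than inward in 8 of 9 libraries, whereas the other 9 genes had more inward in 8 or 9 of 9.

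Egr4 (chr6:85511121-85513589), a zinc finger gene, had 2655, 3176 and 3822 bp in KO, 2930, 2841 and 2437 bp in HxD, and 1765, 2750 and 4609 bp in WT. The WT libraries spanned the whole range of the other 6. Its annotated promoter was covered over all 300 bases in the KO libraries, over 300, 300 and 187 bases in HxD, and over 0, 78 and 300 bases in WT. Id4 (chr13:48261116-48266028), an inhibitor of DNA binding that marks stem cells, had 2644, 3103 and 3290 bp in KO, 3381, 1875 and 2742 bp in HxD, and 2576, 3135 and 3629 bp in WT. The nearer end of the noncoding A330033J07Rik lies 1507 bp from the marked end of Id4. For both genes the groups overlapped in every comparison.

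Among the factors of self-renewal, Sall4 had the largest positive differences of the 10 genes. Sall4 (chr2:168748332-168767201), a zinc finger factor that germ cells also use before birth, had 2752, 3669 and 4212 bp in KO, 3786, 3128 and 3054 bp in HxD, and 2092, 3065 and 2522 bp in WT. The second WT library overlapped both mutants, and the other WT libraries lay below all 6 mutant libraries. The mean was 3544 ± 738 bp in KO, 3323 ± 403 bp in HxD and 2560 ± 488 bp in WT (SD, n = 3 each). The difference was 985 bp for KO minus WT (SE 461, limma, unadjusted p = 0.0502, adjusted p = 0.353), with a 95% interval from −0.835 to 1970 bp. For HxD minus WT it was 763 bp (SE 461, limma, adjusted p = 0.589), with an interval from −223 to 1749 bp. The nearer end of the noncoding Gm14261 lies 909 bp from the marked end.

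Zbtb16 (chr9:48651797-48836225), the gene of PLZF, had 2768, 2975 and 3643 bp in KO, 3250, 3101 and 3011 bp in HxD, and 3470, 2213 and 4433 bp in WT. The HxD libraries lay close together, with an SD of 121 bp, and the WT libraries spread widely, with an SD of 1113 bp. Foxo1 (chr3:52268337-52350109), a forkhead factor held back by AKT, had 3642, 4613 and 4728 bp in KO, 4088, 3890 and 3656 bp in HxD, and 3749, 3960 and 4040 bp in WT. The 300 bases of its annotated promoter had 0, 300 and 300 covered in KO, 300, 300 and 137 in HxD, and 115, 300 and 233 in WT, so its gap without cover fell in a KO library, unlike those of Etv5 and Egr4. Eomes (chr9:118478186-118486132), a T-box factor, had 2948, 4232 and 4076 bp in KO, 4653, 3817 and 3161 bp in HxD, and 3661, 4068 and 3387 bp in WT. The nearer end of the noncoding Gm33408 lies 546 bp from the marked end of Eomes. The groups overlapped for these genes in every comparison. The differences from WT lay between −243 and 411 bp in KO and between −251 and 172 bp in HxD.

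**Figure D2:**
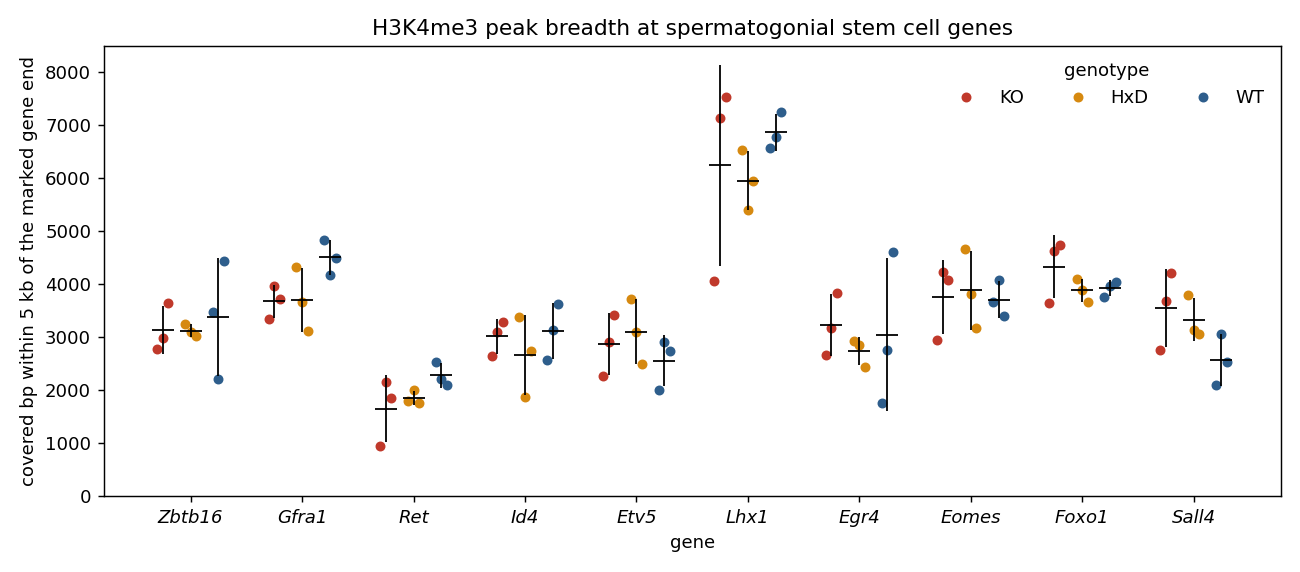
Breadth (covered bp within 5 kb of the marked gene end) of the 10 genes in each library, with KO, HxD and WT side by side. Points are libraries, the horizontal bar is the mean and the vertical line is 1 SD on either side (n = 3). Lhx1 lies above the others, Ret below them, and the Gfra1 KO points lie below the WT points.

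Over all 9 libraries the genes ranked, from broad to narrow, as Lhx1 (6346 ± 1078 bp), Foxo1 (4041 ± 391 bp), Gfra1 (3954 ± 556 bp), Eomes (3778 ± 546 bp), Zbtb16 (3207 ± 617 bp), Sall4 (3142 ± 661 bp), Egr4 (2998 ± 818 bp), Id4 (2931 ± 530 bp), Etv5 (2838 ± 540 bp) and Ret (1926 ± 439 bp; SD, n = 9). Lhx1 exceeded Foxo1 by 2305 bp and Etv5 exceeded Ret by 912 bp, in each case more than the SD of either gene. The other 7 neighbouring pairs differed by 64.9 to 571 bp, less than the larger SD of the pair. These SDs hold the differences between genotypes and libraries together. The first KO library was the lowest of the 9 for 4 of the 10 genes, as it was for 28.1% of tested genes.

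None of the 10 genes passed limma's test of breadth in KO against WT. Of all tested genes 0.00625% (1 gene) were called narrower and 0.0% broader in KO. At an unadjusted p under 0.05 none of the 10 was called, beside 7.45% of tested genes narrower and 6.76% broader. Gfra1 was the only one of the 10 whose 3 KO libraries all lay below the 3 WT libraries, which 9.07% of tested genes did, and none lay all above, which 8.49% did. The KO mean was above the WT mean in 5 of the 10, against 53.3% of tested genes, and below it in the other 5, against 46.7%. The median difference was −27.2 bp over the 10 genes and 45.0 bp over all tested genes. Without the first KO library these medians were 453 and 233 bp, without the third WT library 222 and 167 bp, and the median of the 10 stayed below 0 when any of the other 4 libraries of these groups was left out.

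HxD against WT gave no called gene among the 10, and none among all tested genes (0.0% narrower and 0.0% broader, limma). At an unadjusted p under 0.05 the test called none of the 10, beside 9.04% of tested genes narrower and 1.75% broader. Ret and Lhx1 were the 2 of the 10 whose HxD libraries all lay below the WT libraries, against 13.3% of tested genes, and none lay all above, against 3.62%. The HxD mean was above the WT mean in 3 of the 10 genes (Etv5, Eomes and Sall4), beside 38.9% of tested genes, and below it in 7, beside 61.1%. The median difference was −278 bp over the 10 genes and −125 bp over all tested genes. It turned to 18.0 bp over the 10 genes without the third WT library, which had the longest peak list, to 73.2 bp with a window of 2 kb (6 of 10 above 0), and to 761 bp with lists of equal length. The KO and HxD comparisons share the WT libraries, so their values are not independent.

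KO against HxD called none of the 10 genes and none of all tested genes (0.0% broader and 0.0% narrower, limma, adjusted p of 1.0 for each of the 10). At an unadjusted p under 0.05, 2.69% of tested genes were broader and 0.219% narrower in KO, with none of the 10 among them. No gene of the 10 had groups that did not overlap, against 7.19% of tested genes all above and 0.713% all below. KO means were above HxD means in 6 of the 10, against 71.8% of tested genes, and below in 4, against 28.2%. KO minus HxD ranged from −236 bp at Etv5 to 482 bp at Egr4.

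**Figure D3:**
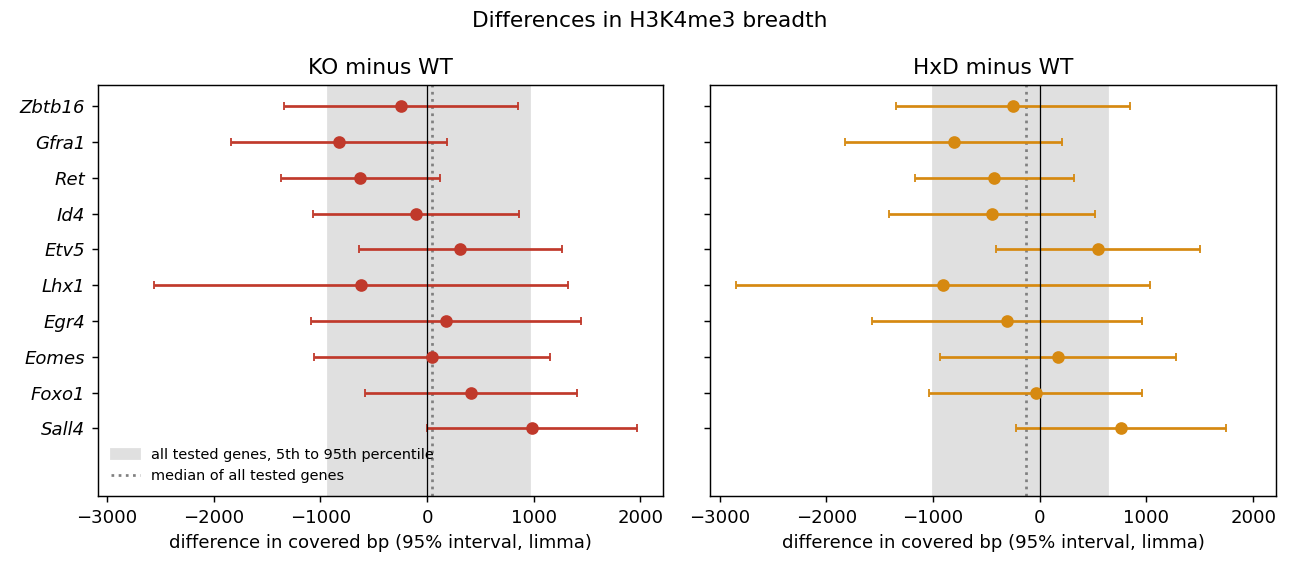
Difference in breadth (bp) for the 10 genes, KO minus WT on the left and HxD minus WT on the right. Points are limma estimates with 95% intervals, the grey band is the range from the 5th to the 95th percentile of all tested genes and the dotted line their median. Every interval holds 0, and Sall4 in the KO panel comes closest to clearing it.

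The peaks were also counted in each window. A window held exactly 1 peak for 7, 7 and 7 of the 10 genes in KO, for 9, 6 and 7 in HxD and for 2, 4 and 4 in WT. In gene-by-library terms this was 21 of 30 windows in KO, 22 of 30 in HxD and 10 of 30 in WT. Every KO and HxD library thus had more such windows than every WT library, and no test was made over the 10 genes. Foxo1 had 2, 1 and 1 peaks in KO, 1, 1 and 2 in HxD and 2 in each WT library. Sall4 had 1, 1 and 2 peaks in KO, 1 in each HxD library and 2, 1 and 3 in WT.

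All tested genes give the background to this. Their share of windows with 1 peak was 55.3%, 62.7% and 63.2% in KO, 66.4%, 67.5% and 59.9% in HxD, and 47.6%, 53.9% and 44.3% in WT. Neither mutant overlapped WT in this share, which gave p = 0.1 for KO against WT and for HxD against WT (two-sided exact permutation test, 3 against 3 libraries, the smallest p this design allows). The WT lists were also the longest, and the part of list length in these counts was not tested. A further peak in a window need not be a split one. At Gfra1 in the first WT library it lay apart, from −4524 to −4186 bp, outward of the gene. The marked base itself lay outside any peak for 2, 0 and 0 of the 10 genes in KO, for none in HxD and for 4, 1 and 1 in WT. Over all tested genes that share was 34.3%, 16.5% and 15.3% in KO, 19.1%, 25.8% and 32.3% in HxD, and 38.3%, 31.3% and 21.8% in WT, with overlap between the groups (two-sided exact permutation test, p = 0.3 for KO and 0.5 for HxD).

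**Figure D4:**
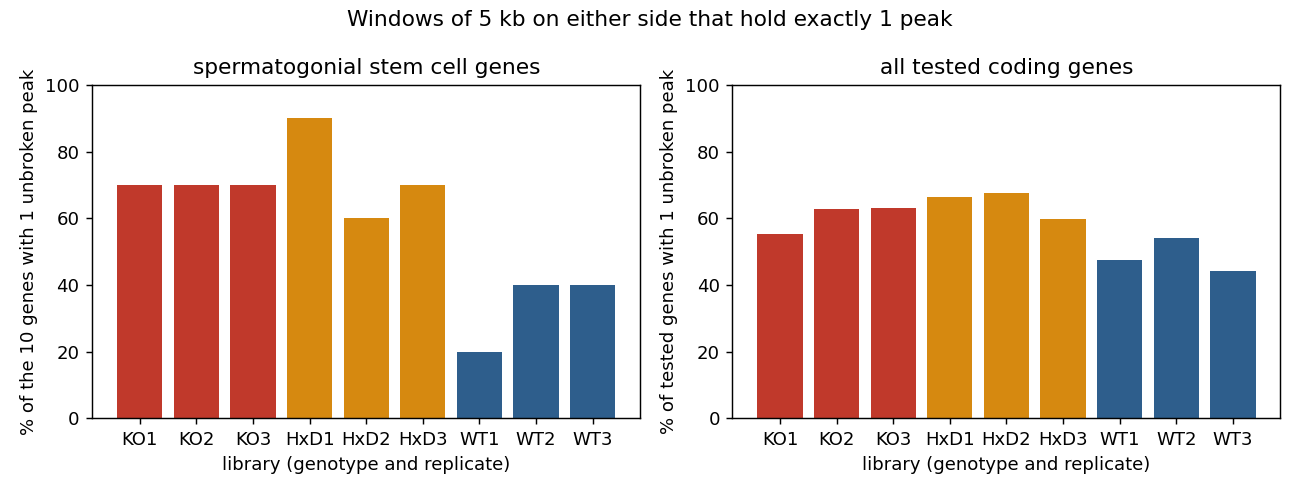
Percent of windows (5 kb on either side of the marked end) with exactly 1 peak, per library, for the 10 genes on the left and all tested coding genes on the right. The KO and HxD bars stand above the WT bars in both panels.

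Peak height was read from the fold enrichment of the highest peak in each window, a linear ratio that the authors' caller gave per peak. Sall4 and Lhx1 held the highest peaks of the 10. Sall4 had 20.8, 23.2 and 43.7 fold in KO, 24.4, 22.2 and 22.5 fold in HxD, and 14.9, 13.4 and 15.9 fold in WT. Lhx1 had 16.1, 27.2 and 49.7 fold in KO, 27.6, 27.1 and 24.0 fold in HxD, and 14.6, 12.7 and 21.5 fold in WT. The Lhx1 values of 14.6 and 21.5 fold came from a separate peak that only partly lay in the window. Its summits were 5544 and 5525 bp into the gene. In those WT libraries the peak over the marked end had 8.77 and 20.0 fold. All other Lhx1 values came from the peak over the marked end. At Sall4 both mutants lay wholly above WT. At Lhx1 HxD did, also when only peaks over the marked end were compared.

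Id4 and Etv5 also lay wholly above WT in both mutants. Id4 had 14.6, 20.4 and 23.9 fold in KO, 31.9, 14.9 and 18.2 fold in HxD, and 11.2, 11.9 and 7.60 fold in WT. Etv5 had 11.7, 17.4 and 21.5 fold in KO, 19.3, 18.7 and 10.2 fold in HxD, and 4.98, 10.2 and 8.66 fold in WT. The lowest HxD library and the highest WT library of Etv5 were level at 10.2 fold to this rounding. Egr4 had 19.7, 25.6 and 14.5 fold in KO, 17.7, 12.7 and 5.88 fold in HxD, and 4.82, 11.6 and 5.44 fold in WT, with KO alone wholly above WT. In the lowest libraries the peaks were weak, 4.21 fold for Ret in the first KO library and 4.57 fold for Zbtb16 in the second WT library.

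These folds depend on each list's background, and the lists as a whole differed. The median over tested genes was 11.1, 15.8 and 17.4 fold in KO, 13.0, 12.1 and 10.7 fold in HxD, and 9.63, 9.33 and 12.4 fold in WT. The median of the 10 genes was 15.3, 20.2 and 21.0 fold in KO, 22.0, 17.4 and 15.7 fold in HxD, and 13.6, 10.9 and 15.9 fold in WT. All KO folds lay above all WT folds for 4 of the 10 genes, against 23.1% of tested genes, and all HxD folds above all WT folds for 4 of the 10, against 12.2%. As percentiles within each list, 0 of the 10 genes were wholly higher in KO than in WT (9.18% of tested genes) and 2 were in HxD (7.76%), namely Lhx1 and Sall4. Sall4 lay between percentiles 83.1 and 98.5 in KO, 94.7 and 99.4 in HxD and 75.5 and 90.6 in WT. Ranks from lists of different length show no change by themselves, and no test was made on folds or ranks.

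**Figure D5:**
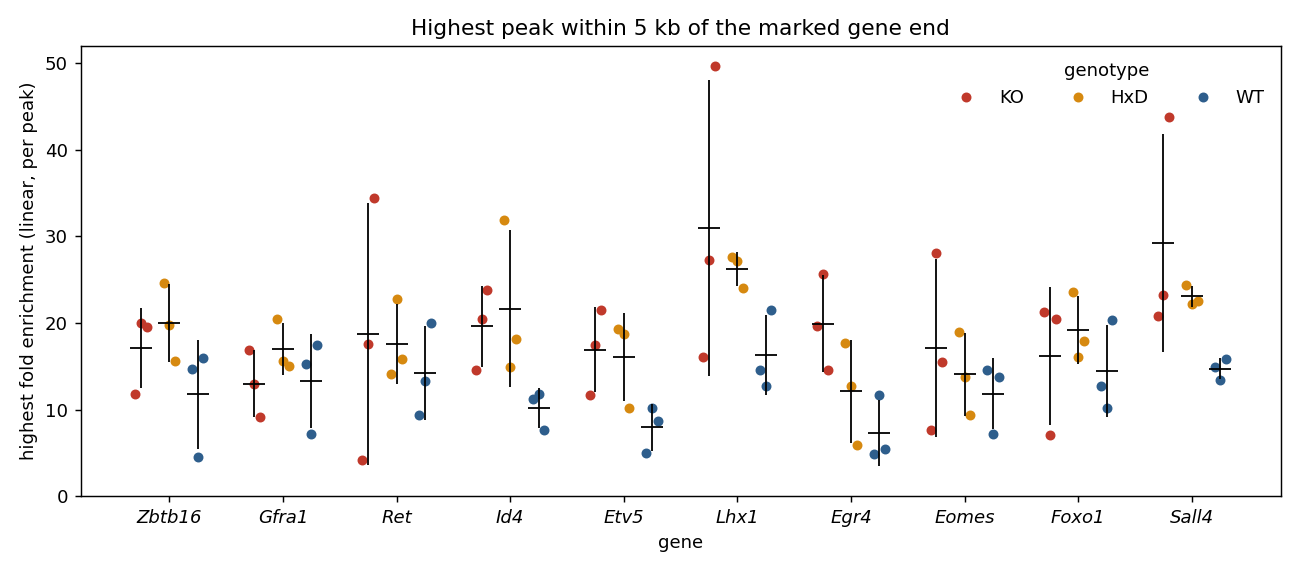
Highest fold enrichment (linear, the authors' value per peak) among peaks that reach within 5 kb of the marked end. Each of the 10 genes is shown with KO, HxD and WT side by side. Points are libraries, the horizontal bar is the mean and the vertical line 1 SD on either side (n = 3). The WT points of Id4, Etv5 and Sall4 lie below all KO and HxD points.

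Each list was also cut to its 49624 strongest peaks by q value, the length of the shortest list. All 10 genes kept a peak within 1 kb of the marked end in every KO and HxD library, and 8, 9 and 8 of the 10 kept one in the WT libraries. Over all tested genes the share with such a peak fell from 89.6%, 96.8% and 95.1% to 87.1%, 91.8% and 93.0% in KO. In HxD it was 96.0%, 91.7% and 93.2% before the cut and 91.9%, 91.7% and 88.7% after it. In WT it fell from 96.2%, 95.6% and 98.8% to 76.8%, 78.5% and 80.3%, so WT lists lost the most across all genes. Etv5 and Egr4 lost theirs in the first WT library, Zbtb16 in the second, and Id4 and Egr4 in the third. On these lists the median difference over the 10 genes was 809 bp for KO minus WT, with 8 of 10 above 0, beside 308 bp over all tested genes. For HxD minus WT it was 761 bp, with 7 of 10 above 0, beside 155 bp over all tested genes. None of the 10 passed limma, and the smallest adjusted p was 0.0687, at Egr4 in KO minus WT. Gfra1 and Ret stayed below WT in both mutants, and Etv5 and Sall4 above WT in both, under this and each other alternative tried and without each library.

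Beyond the promoter windows, some of the 10 genes carried further peaks, merged here across the libraries. A region at and past the far end of Eomes, chr9:118486052-118490492, held a peak in all 9 libraries, with a mean of 3129 bp in KO, 2913 bp in HxD and 3418 bp in WT. A region past the far end of Lhx1, chr11:84512470-84514694, also held one in all 9, with 1626 bp in KO, 1394 bp in HxD and 1182 bp in WT. Inside Etv5, chr16:22428216-22429767 was marked in all 9, with 731 bp in KO, 411 bp in HxD and 878 bp in WT.

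Gfra1, the longest of the 10 genes at 220366 bp, had the most such regions, 15, of which 11 were called in 1 library only. One of them, chr19:58441434-58442204, was called in 0 KO, 3 HxD and 2 WT libraries. Another, chr19:58357588-58359222, was called in 2 KO, 3 HxD and 3 WT libraries. Zbtb16 had 5 regions outside its window, and that at chr9:48648915-48650494, past the far end of the gene, was called in 3 KO, 2 HxD and 3 WT libraries. Id4 and Egr4, the shortest of the 10 genes, had none. No test was made on regions that were found with these peaks.

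The rest of the pathway was read from lists of related genes. Of 24 GDNF signalling partners (ligands, co-receptors and signalling proteins below RET), 22 were tested and none was called by limma in any comparison. The KO mean was above the WT mean in 15 of the 22, with a median difference of 379 bp, and the HxD mean in 12 of the 22, with a median of 87.7 bp, beside the medians of 45.0 and −125 bp over all tested genes. Of all tested genes 53.3% had a KO mean above WT and 38.9% an HxD mean above WT. Gfra4, a co-receptor for persephin, averaged 2079 ± 233 bp in KO, 1617 ± 174 bp in HxD and 1258 ± 127 bp in WT (SD, n = 3 each). Both mutants lay wholly above WT, with a difference of 821 bp for KO minus WT (limma, adjusted p = 0.216). Of the 22, 2 lay wholly above WT in KO and 3 in HxD, beside 8.49% and 3.62% of tested genes. Wholly below WT lay 0 in KO and 2 in HxD, beside 9.07% and 13.3%. Pik3ca, a catalytic subunit of PI3K, averaged 2683 ± 255 bp in KO, 2016 ± 112 bp in HxD and 1716 ± 102 bp in WT, and its KO libraries lay wholly above WT (967 bp, limma, adjusted p = 0.190). Nrtn, the ligand neurturin, averaged 3815 ± 1291 bp in KO, 3891 ± 1059 bp in HxD and 5261 ± 1275 bp in WT.

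None of the 12 other GDNF or FGF responsive factors of spermatogonia was called in any comparison. Bcl6b, a GDNF-induced repressor, had its KO libraries wholly below WT, as 9.07% of tested genes did. It averaged 3527 ± 1239 bp in KO, 3792 ± 1413 bp in HxD and 5057 ± 685 bp in WT (KO minus WT −1530 bp, limma, adjusted p = 0.367). Nanos2, an RNA-binding protein of male germ cells, averaged 3347 ± 1525 bp in KO, 2153 ± 730 bp in HxD and 1745 ± 526 bp in WT (KO minus WT 1602 bp, limma, adjusted p = 0.264). Among 25 paralogues of the 10 genes none was called either. The closest was Zbtb7a, with 4952 ± 148 bp in KO, 4385 ± 554 bp in HxD and 2921 ± 866 bp in WT (KO minus WT 2031 bp, limma, adjusted p = 0.142). Isl1, a LIM homeobox gene, lay on the other side, with 3111 ± 567 bp in KO, 3067 ± 431 bp in HxD and 4587 ± 634 bp in WT (KO minus WT −1475 bp, limma, adjusted p = 0.200). Both mutants lay wholly above WT at Zbtb7a and wholly below it at Isl1. In each mutant 1 of the 25 lay wholly above WT and 1 wholly below. Over all tested genes these shares were 8.49% and 9.07% in KO and 3.62% and 13.3% in HxD. Of 12 tested regulators of PI3K and FOXO none was called in any comparison. The KO mean was above the WT mean in 7 and the HxD mean in 6, beside 53.3% and 38.9% of tested genes.

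The background to the counts that follow is 53.3% of tested genes with the KO mean above the WT mean and 38.9% with the HxD mean above it. For genes of differentiating spermatogonia, 12 of 14 listed were tested, none was called, and the KO mean was above the WT mean in 8 and the HxD mean in 5. Of 15 prospermatogonial and germ cell genes 14 were tested and none was called, with the KO mean above WT in 10 and the HxD mean in 5. Nanos3, a germ cell survival factor, averaged 1680 ± 796 bp in KO, 1619 ± 394 bp in HxD and 506 ± 468 bp in WT (SD, n = 3 each). Its HxD libraries lay wholly above WT, as those of 3.62% of tested genes did (1112 bp, limma, adjusted p = 0.319). Piwil4 lay on the other side, with 224 ± 388 bp in KO, 686 ± 290 bp in HxD and 1038 ± 493 bp in WT. The Piwil4 difference was −814 bp for KO minus WT (limma, adjusted p = 0.232), and the groups overlapped. Of 11 tested housekeeping genes none was called, with the KO mean above WT in 9 and the HxD mean in 6. Markers of somatic cells had means mostly below WT. The KO mean was above the WT mean in 2 of 9 tested Sertoli markers, 1 of 7 Leydig and interstitial markers and 1 of 5 endothelial or blood markers, and the HxD mean in 0, 1 and 2 of them, with none called. Their summed cover was 11234 to 20856 bp in KO, 13963 to 20923 bp in HxD and 18910 to 27677 bp in WT for the Leydig and interstitial list, and 7098 to 12252 bp in KO, 9674 to 11931 bp in HxD and 11759 to 15339 bp in WT for the endothelial or blood list. Of the 10 Leydig and interstitial markers 4 had a peak within 1 kb of the marked end in all 9 libraries, Insl3 and Lhcgr among them, and of the 10 endothelial or blood markers 5 did, Kdr, Cdh5, Tek, Flt1 and the macrophage marker Cd68. The steroidogenic genes Cyp17a1 and Hsd3b1, the leukocyte gene Ptprc and the macrophage genes Adgre1 and Csf1r had no peak within 5 kb in any library. Gfra1, Ret, Lhx1, Zbtb16 and Id4 had KO and HxD means below WT, as most of these markers did. So did 46.7% of all tested genes in KO and 61.1% in HxD, each mutant counted alone. The part of somatic nuclei in the values of these stem cell genes was not tested. In nuclei pooled for a library, fewer marked cells and less mark per cell cannot be told apart.

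Across the libraries the mean of the 10 genes was set beside that of all tested genes. Their mean breadth correlated across the 9 libraries with the mean breadth of all tested genes at a Pearson r of 0.959, points that share library and list length. The 5 tested genes with the most similar profile were Prickle2 (r = 0.987), Irf9 (0.986), Bcl11a (0.981), Fggy (0.977) and Alkbh3 (0.974). They are the highest of all tested genes outside the 10, whose median r was 0.512. Of the 45 pairs among the 10 genes, 38 had an r above 0, with a median of 0.387. After the mean of the library over the tested genes was subtracted, 22 of the 45 pairs had an r above 0 and the median was −0.011.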

How the data were processed

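H3K4me3 CUT&RUN libraries (3 KO, 3 HxD, 3 WT) were taken as deposited peak lists in the narrow peak format, 1 list per library, so the authors called peaks per sample. The submitters' processing notes name the build mm10 and MACS2 2.1.0, Bowtie2 2.5.0, Trim Galore, bedtools 2.27.1, deepTools 3.5.1 and SAMtools 1.16.1, with their order and settings not given in the sources used. Each deposited peak holds the authors' score, its fold enrichment (a linear ratio), its −log10 p and its −log10 q. Across lists the lowest deposited −log10 q was 2.00 to 2.02. The lists differ in length, which can change which peaks enter a breadth value. No counts were used, so depth is unknown and no counting intervals are given.

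Peaks of the 19 autosomes and of X and Y were joined to the coding genes of RefSeq (GRCm38.p6, the assembly of mm10), 1-based. The marked end was the gene end with more covered bp within 1 kb, summed over the 9 libraries. It may be a neighbour's promoter. It was the annotated start, meaning the upstream end of the gene on its strand, in 92.2% of 12729 tested genes whose strand is known. Breadth (covered bp within 5 kb) was fitted over all 9 libraries with limma 3.58.1 in R 4.3.3 (no transformation, eBayes with trend, Benjamini-Hochberg over 16000 genes, threshold 0.05). The limma step alone was tested on simulated data. Python 3.11.15, numpy 2.4.6 and pandas 2.3.3 did the rest. For single values per library, exact permutation tests (two-sided) were used. At most 6 peaks were identical between any pair of lists.

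All 10 genes are named. From the other lists, genes were named if called, and otherwise from the 2 smallest unadjusted p in each direction for KO or HxD against WT. Markers named only for holding or lacking a peak were chosen after their values were seen. Promoters shown had a peak in all 9 libraries, except the outer Etv5 start, added after its values were seen. The genes and lists were chosen with earlier results of these data known. Alternatives were a stricter q (−log10 q of at least 5), lists of equal length, a window of 2 kb, the annotated start, an overlap of 200 bp for a promoter peak, centring by library, no filter, a replicate block, only the 2 groups compared, and leaving out each library.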

Additional observations from a re-analysis of the deposited data

How the results depend on the processing

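None of the 10 genes was called under any alternative. Over all genes, those called narrower in KO than in WT numbered 1, and 0 with stricter peaks, 53 with lists of equal length, 0 with a 2 kb window, 42 with annotated starts, 281 with centring by library, 69 with no filter and 0 with only the 2 groups compared (0 to 2 leaving out 1 library). Those called broader numbered 0, and 241 with equal lengths, 1 with annotated starts, 183 with centring and 4 with no filter (0 to 3 leaving out 1 library). For HxD against WT none was called, against 1, 27, 43 and 56 narrower with equal lengths, annotated starts, centring and no filter (0 to 22 leaving out 1 library), and 3, 12 and 2 broader with equal lengths, centring and no filter (0 to 3). For KO against HxD, no filter gave 1 broader. With a replicate block 0 genes were called in KO against WT and no other count changed. Deviations of same-numbered libraries of different genotypes correlated at −0.236 to 0.0798, and those of differently numbered ones at −0.1085 to 0.1752. The labels used state no pairing, and these values cannot decide whether the numbers pair the libraries. With equal lengths 8.33 of the 10 genes had a promoter peak in WT on average, against 10 in the full lists.

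Uncalled differences changed sign as follows. With equal lengths KO minus WT was 664 bp at Zbtb16, 1109 at Id4 and 384 at Lhx1, HxD minus WT was 760.0 at Zbtb16, 762 at Id4, 1998 at Egr4 and 505 at Foxo1, and KO minus HxD was −96.3 at Zbtb16. With a 2 kb window HxD minus WT was 30.0 at Zbtb16, 132 at Lhx1 and 195 at Egr4, and KO minus HxD was −141 at Zbtb16, 189 at Gfra1 and −368 at Lhx1. With stricter peaks KO minus HxD was 61.3 at Gfra1 and KO minus WT −40.0 at Eomes, and with centring KO minus HxD was −174 at Zbtb16 and HxD minus WT 108 at Foxo1. Leaving out 1 library, KO minus WT ran from −823 to 287 at Zbtb16, −370 to 157 at Id4, −1262 to 466 at Lhx1, −462 to 960.2 at Egr4 and −193 to 449 at Eomes. HxD minus WT ran from −831 to 279 at Zbtb16, −944 to 479 at Egr4, −216 to 530 at Eomes and −143 to 72.7 at Foxo1. KO minus HxD ran from −249 to 188 at Zbtb16, −309 to 294 at Gfra1, −452 to 149 at Ret, −49.2 to 704 at Id4, −542 to 69.0 at Etv5, −357 to 1371 at Lhx1, −483 to 277 at Eomes and −112 to 618 at Sall4. The cause was not tested. Depth is unknown and each group has 3 libraries.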
